A study of Mus musculus with 12 samples.

Results

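The 37 genes described here encode proteins that bring fatty acids into muscle fibres, release them from stored fat, carry them into mitochondria and oxidise them there, together with the enzymes that use ketone bodies. They were chosen by gene symbol as a list of enzymes and carriers of these routes, and all 37 were found among the 25094 genes listed in each of the 2 deposited tables. In both strains all 37 passed the filter on low values, which asked that RPKM averaged 0.1 or more across the 6 libraries (RPKM are reads scaled to the length of the listed transcript and to all reads of the library). For 35 of them both tables list the same transcript. Bdh1 and Eci2 are listed with different transcripts in the tables of the strains, so for them only right and left legs of 1 strain are directly comparable.

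Sequenced poly(A) RNA came from a calf muscle, the gastrocnemius, of C57BL/6 and BALB/c mice, inbred strains represented here by wild-type (WT) males kept on a regular diet. In the right leg the sciatic nerve had been cut and its ends sutured to neighbouring muscle 2 weeks earlier. The left leg is labelled healthy, and the labels do not say whether it had the sham operation that the protocol mentions. The 4 groups were the left and the right legs of C57BL/6 and of BALB/c, with 3 libraries each, and no label gives the age of the mice or says that each library of a group is another mouse. The p-values therefore speak only of the spread among these libraries, which may be technical.

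Long-chain fatty acids enter a muscle fibre with the help of membrane proteins, are bound in the cytosol by a carrier protein, and are either stored as triglyceride or linked to coenzyme A and passed into mitochondria as carnitine esters. In the mitochondrial matrix each turn of beta-oxidation removes an acetyl unit through an acyl-CoA dehydrogenase, a hydratase, a second dehydrogenase and a thiolase, and the electrons pass through the electron transfer flavoprotein to the respiratory chain. Ketone bodies made in the liver are converted back to acetyl-CoA in muscle by 3 enzymes, encoded by Bdh1, Oxct1 and Acat1. Oxidative fibres carry more of this machinery than fast glycolytic fibres, and nuclear receptors of the PPAR and ERR families with the coactivator PGC-1α drive many of its genes.

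Because PPAR with its partner RXR binds a repeat of AGGTCA in which both copies are 1 base apart, the promoters of the members were searched for that repeat. RefSeq promoter windows of 300 bases (250 before and 50 after a start site, GRCm38.p6) were given for 30 of the 37 members, 36 windows in all. With at most 1 mismatch in each copy and both strands searched, the repeat was found in 3 of the 36 windows (8.33%), against 2.40% of all 32851 windows. The ERR motif TCAAGGTCA was found, by exact match on either strand, in 0 of the 36 and in 0.423% of all windows. Those 3 matches are shown with 7 bases on each side because they are the only places in these windows where the letters of the repeat occur, with the match in capitals.
Cd36 (GRCm38.p6 chr5:17835940-17835966, minus strand): ggttctcTGGCCTCTGACTTacttgga
Etfa (GRCm38.p6 chr9:55512301-55512327, minus strand): cacacccTTACCTTTGCCCTactccca
Slc25a20 (GRCm38.p6 chr9:108662135-108662161, plus strand): tgaatgtAGGTGAAAGGTCGgcggagc
In Cd36 and Etfa the repeat lies on the strand opposite to the gene, 63 and 77 bases before the start site, and in Slc25a20 it lies on the strand of the gene, starting 6 bases after it. These are matches of letters, and binding was not measured.

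Changes are given as the right-leg value less the left-leg value of log2(RPKM + 0.5), with the standard error (SE), on which low genes appear to change less than they do. A gene was called when its adjusted p from limma was under 0.05, with Benjamini-Hochberg adjustment over all genes tested in that comparison. Over all tested genes the median change was 0.52 in C57BL/6 and 0.38 in BALB/c, so each change was also computed after median-of-ratios rescaling, which sets the typical gene level between libraries and brought both medians to 0.02. A change that is called in only 1 of these scalings depends on that choice, and both values are therefore given. Rescaling divided left legs by 0.766 to 0.913 and right legs by 1.10 to 1.32, so it lowered every change. A fall as deposited is thus deepened by it, and a lower call under both scalings is not separate support.

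The library scaling totals lay between 18132620 and 19282890 reads, and the least covered member value, Bdh1 in a BALB/c right leg, rested on 19 reads. One library stood apart in these genes. BALB/c left library 2 was the highest of its group in 36 of the 37 members, with a median of 1.86 times the mean of the other 2 left libraries (range 1.04 in Crat to 5.82 in Plin5), while its median over all tested genes was 1.12 times. Leaving the library out changes several results, so values without it are given beside the calls that change with it. In the right legs of BALB/c, library 2 was the highest in 24 members, up to 5.89 times the mean of the others in Bdh1. In C57BL/6, library 1 was the lowest in 31 members in the left legs and in 29 in the right legs, with median ratios of 0.87 and 0.88. The labels do not tie equal library numbers to 1 animal.

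**Figure D1:**
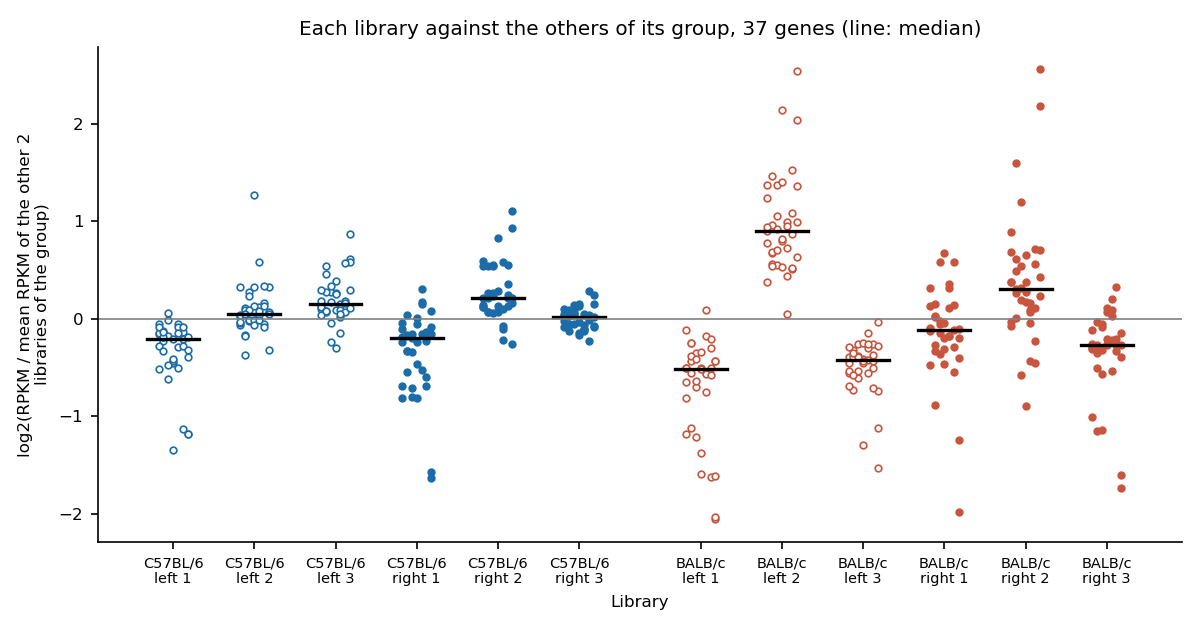
Ratio of each library's RPKM to the mean of the other 2 libraries of its group (vertical axis, log2), 1 point per gene for the 37 genes, open points for left and filled points for right legs, lines at the medians. BALB/c left 2 lies above the rest of its group in nearly all genes (36 of 37 highest), and C57BL/6 libraries 1 lie mostly below 0.

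Markers of some other cell types and of slow fibres also differed between some of the groups. The counts of called markers below stand beside all tested genes. Of these, 63.6% were called higher and 8.56% lower in C57BL/6 as deposited, and 42.5% and 7.67% in BALB/c. After rescaling the shares were 28.2% and 26.4% in C57BL/6 and 21.8% and 19.0% in BALB/c. The summed level of 9 adipocyte markers was 28.8, 329 and 167 RPKM in the BALB/c left legs, 141 to 263 in the right legs, and 1.26 to 39.5 in all C57BL/6 libraries. None of the 7 that were tested in C57BL/6 and the 9 in BALB/c was called under either scaling. Without BALB/c left library 2, Adrb3 was called higher as deposited (0.59, limma adjusted p = 0.0138) and after rescaling (0.39, adjusted p = 0.05 when rounded). The 10 macrophage markers summed to 9.89 to 13.5 RPKM in left and 92.9 to 185 in right legs of C57BL/6, and to 62.6 to 106 and 187 to 301 in BALB/c. In C57BL/6 and BALB/c 10 and 8 of them were called higher as deposited, and 10 and 6 after rescaling. The slow-fibre genes Myh7, Tnni1, Tnnt1 and Tnnc1, chosen after their values were seen, were low in BALB/c left library 1 and high in left libraries 2 and 3. Myh7, the slow myosin heavy chain, was at 17.3, 193 and 161 RPKM in BALB/c left legs, 141 to 238 in the right legs, 0.160 to 2.36 in C57BL/6 left legs and 18.7 to 82.3 in the right legs. Its BALB/c legs overlapped, while those of the slow troponin genes did not: Tnni1 was at 17.1 to 166 RPKM in left and 506 to 603 in right legs of BALB/c, Tnnt1 at 38.6 to 337 and 945 to 1943, and Tnnc1 at 32.7 to 318 and 341 to 554. In C57BL/6 every right leg was above every left leg in all 4 genes. The 10 myofibre markers summed to 136600 to 147500 RPKM in left and 78630 to 84610 in right legs of C57BL/6 and to 101300 to 130400 and 68010 to 95810 in BALB/c, none of them at 0. Of these, 7 were called lower and 3 higher in C57BL/6 and 3 lower and 2 higher in BALB/c as deposited, with Mb (myoglobin) and Des (desmin) among the higher ones in both. Rescaled, 8 were called lower and 2 higher in C57BL/6 and 4 lower and 1 higher in BALB/c. The 10 endothelial markers summed to 71.9 to 90.0 RPKM in C57BL/6 and 100.8 to 154 in BALB/c. As deposited, 2 were called lower in C57BL/6 and 1 higher and 1 lower in BALB/c. Rescaled, 9 were called lower in C57BL/6 and 8 in BALB/c, with 0 higher in either. The 9 fibroblast markers summed to 84.1 to 142 RPKM in left and 219.8 to 414 in right legs of C57BL/6, and to 449.8 to 705 and 517 to 668 in BALB/c. As deposited, 8 were called higher in C57BL/6, and 4 higher and 1 lower in BALB/c. Rescaled, 5 were higher and 1 lower in C57BL/6, and 0 higher and 2 lower in BALB/c. The 8 Schwann cell markers summed to 6.89 to 194 RPKM in left and 17.7 to 71.9 in right legs of C57BL/6 and to 48.2 to 168 and 35.5 to 57.7 in BALB/c. As deposited, 1 was called higher in C57BL/6, and 2 higher and 3 lower in BALB/c. Rescaled, 1 was higher in C57BL/6, and 1 higher and 4 lower in BALB/c. The part of these differences in the results below was not tested, and in whole muscle fewer cells of a type cannot be told apart from less RNA per cell.

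In C57BL/6, 21 of the 37 members were called higher in the denervated right leg and 3 lower as deposited, beside 63.6% and 8.56% of all 14551 tested genes. After rescaling, 5 were called higher and 17 lower, beside 28.2% and 26.4% of all tested genes. The 5 members called higher under both scalings were Pnpla2, Slc25a20, Acadl, Acads and Ucp2, and the 3 called lower under both were Slc27a1, Cpt1b and Acadm. Cpt2, Crat, Etfdh, Decr1 and Acat1 were called higher as deposited and lower after rescaling, so their direction rests on the scaling. When each library was left out in turn, 15 of the 21 higher calls were kept in every fit; those of Crat, Etfdh, Decr1, Pdk4, Bdh1 and Acat1 were lost in at least 1, with adjusted p of up to 0.12 in Decr1. The median change of the members was 0.32 against 0.52 for all tested genes, and -0.32 against 0.02 after rescaling.

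In BALB/c, 3 members were called higher and 12 lower as deposited, beside 42.5% and 7.67% of all 14819 tested genes. After rescaling 1 was called higher and 24 lower, beside 21.8% and 19.0%. The 12 members called lower as deposited were Slc27a1, Lpl, Plin5, Cpt1b, Acadm, Etfdh, Hadh, Acaa2, Eci1, Bdh1, Oxct1 and Acat1. They were also called lower after rescaling, which deepens every fall. Ucp2 was higher under both scalings. The median change of the members was -0.46 against 0.38 for all tested genes, and -0.98 against 0.02 after rescaling. Without BALB/c left library 2 the counts were 6 higher and 9 lower (beside 40.6% and 6.53% of all tested genes) as deposited and 2 higher and 18 lower (17.6% and 16.4%) after rescaling, and Plin5, Eci1 and Acat1 were no longer called lower as deposited.

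**Figure D2:**
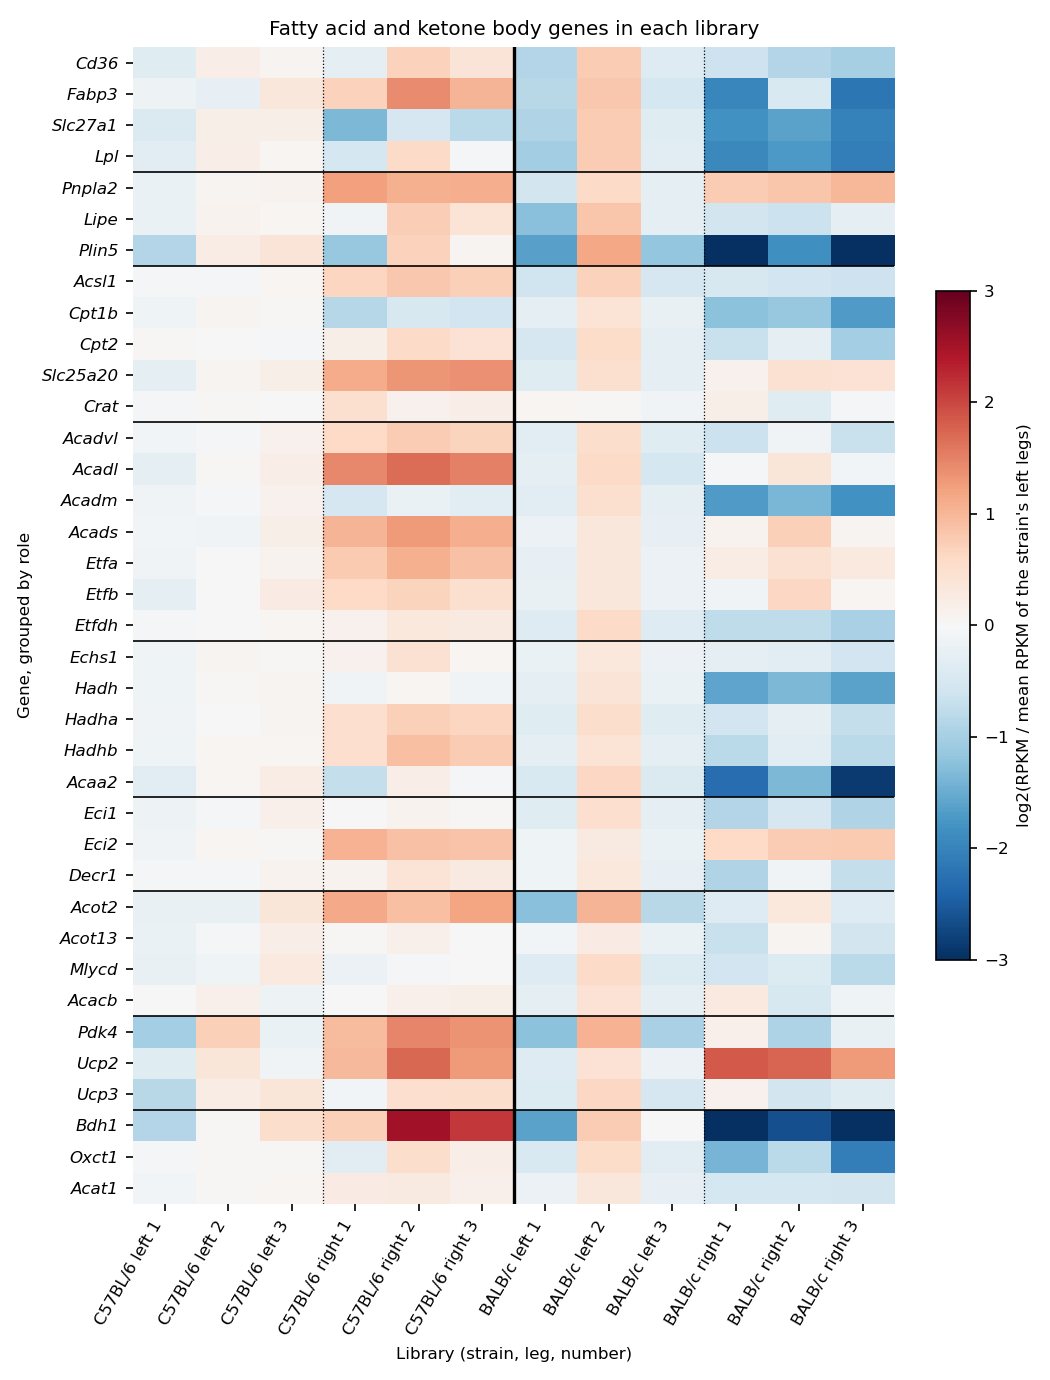
Each cell is the log2 ratio of a library's RPKM to the mean RPKM of the left legs of its strain, for the 37 genes (rows, grouped by role) and 12 libraries (columns), red for higher and blue for lower, with colours capped at ±3. The C57BL/6 right legs are mostly red and the BALB/c right legs mostly blue, and within the BALB/c left legs library 2 is redder than libraries 1 and 3.

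**Figure D3:**
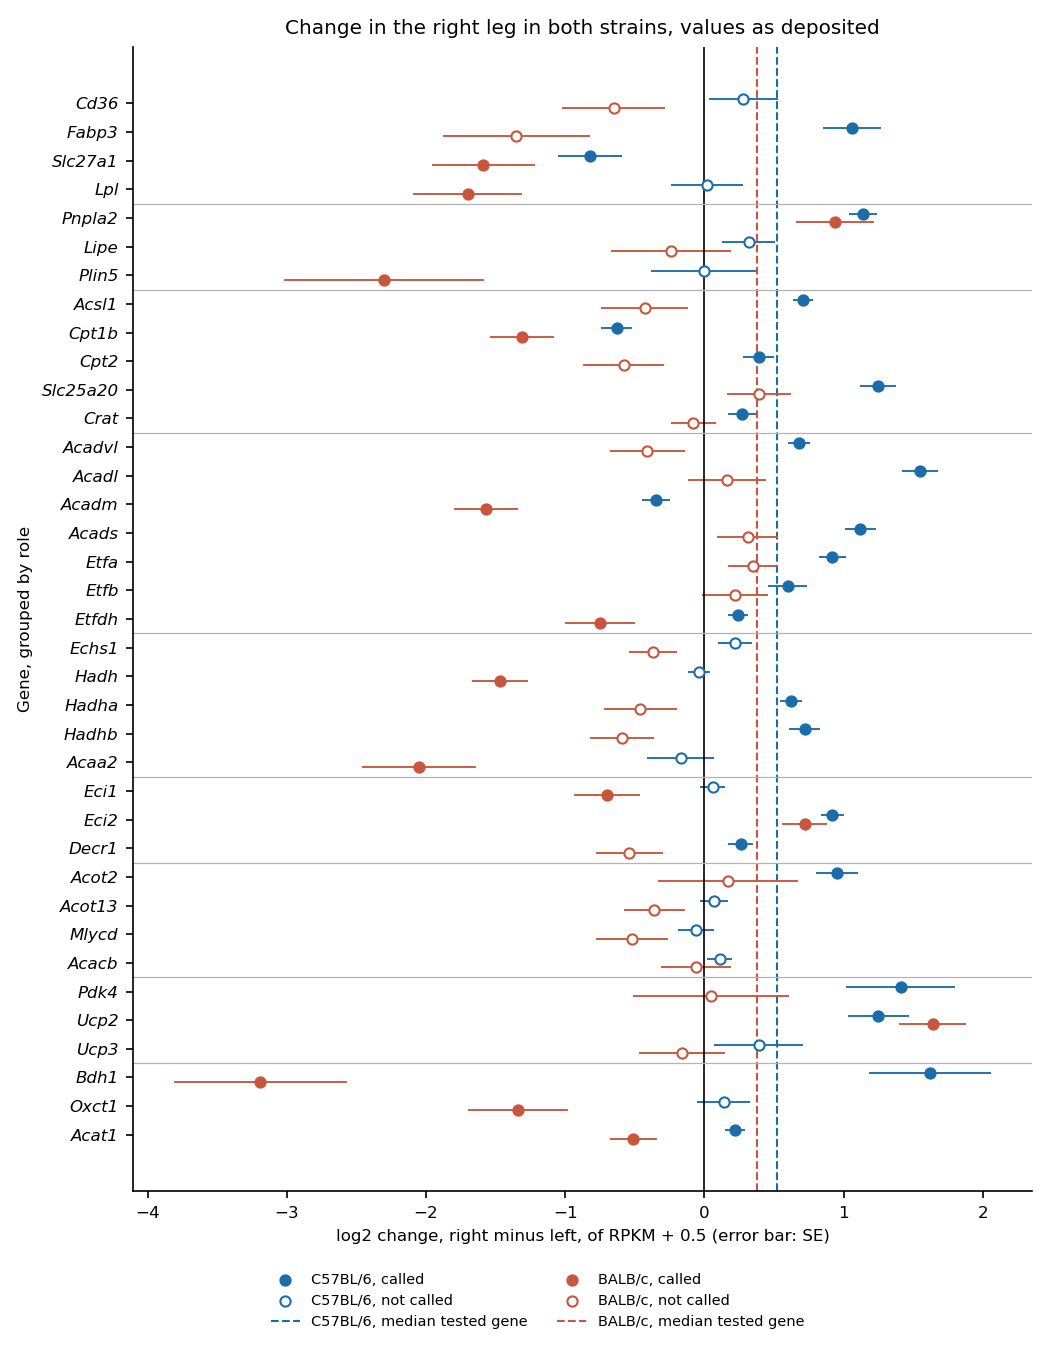
Change in the right leg (horizontal axis, log2 of RPKM + 0.5, bars are the SE) for the 37 genes in C57BL/6 and BALB/c, filled where called at an adjusted p under 0.05, with dashed lines at the median tested gene of each strain, 0.52 and 0.38. Most BALB/c points lie to the left of the C57BL/6 point of the same gene, most widely for Bdh1.

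Of the uptake and binding genes, Slc27a1 fell in both strains under both scalings. Slc27a1 encodes fatty acid transport protein 1, a membrane protein with acyl-CoA synthetase activity (mm9 chromosome 8, 74094493 to 74111206). It was at 10.8, 16.5 and 16.5 RPKM in the left legs and 5.70, 10.3 and 8.32 in the right legs of C57BL/6, and the legs did not overlap. Its change there was -0.82 ± 0.23 (limma adjusted p = 0.0148; -1.51 after rescaling, 9.7e-04), and its adjusted p was 0.0563 without left library 2 and 0.0594 without left library 3. BALB/c libraries had 13.6, 43.4 and 19.8 RPKM in left and 7.21, 8.40 and 6.25 in right legs, again without overlap. That change was -1.59 ± 0.37 (adjusted p = 0.008), and -1.13 (adjusted p = 0.00571) without left library 2.

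Lpl fell in BALB/c, and Fabp3 rose in C57BL/6 as deposited. Lpl encodes lipoprotein lipase, which frees fatty acids from circulating triglyceride (mm9 chromosome 8, 71404454 to 71430831). In BALB/c it was at 47.5, 167 and 78.6 RPKM in left legs and 25.6, 29.5 and 23.1 in right legs, every right leg below every left leg. It fell by 1.70 ± 0.39 (adjusted p = 0.00789), and by 1.22 (adjusted p = 0.0066) without left library 2. In C57BL/6 Lpl overlapped between the legs, at 15.1, 21.7 and 19.6 RPKM in left and 13.1, 27.8 and 18.2 in right legs, with a change of 0.02 ± 0.26 as deposited and -0.68 after rescaling (limma adjusted p = 0.952 and 0.0489). The difference between the strains was -1.72 ± 0.53 (adjusted p = 0.0768) and did not pass the threshold.

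Fabp3 encodes the heart and muscle fatty acid-binding protein, the cytosolic carrier. In C57BL/6 it went from 80.1, 74.8 and 113 RPKM in the left legs to 143, 237 and 182 in the right legs, all 3 right legs above the left. It rose by 1.06 ± 0.21 as deposited (adjusted p = 0.00295) and was not called after rescaling (0.34, adjusted p = 0.196). Fabp3 in BALB/c was at 182, 565 and 226 RPKM in left and 83.1, 235 and 72.02 in right legs, and right library 2 lay above the lower left values. The BALB/c change was -1.35 ± 0.53 (adjusted p = 0.0672) as deposited and -1.87 after rescaling (adjusted p = 0.0288). Without left library 2 it was -0.85 (adjusted p = 0.199), or -1.44 after rescaling (adjusted p = 0.093), and without right library 2 it was -1.88 (adjusted p = 0.0187) as deposited. The Fabp3 difference between the strains was -2.41 ± 0.65 (adjusted p = 0.0513), short of the threshold. Cd36, a fatty acid translocase of the membrane, overlapped between the legs in both strains, at 11.3, 16.9 and 15.6 and 12.1, 23.4 and 19.00 RPKM in C57BL/6 and 24.2, 75.3 and 33.9 and 28.96, 24.3 and 22.3 in BALB/c. Its BALB/c change was -0.65 before rescaling, with an adjusted p of 0.176, and -1.17 after it (adjusted p = 0.024). The Cd36 values without left library 2 were -0.19 and -0.77 (adjusted p = 0.455 and 0.0216).

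Among the lipolysis genes, Pnpla2 rose in C57BL/6 under both scalings and in BALB/c as deposited. Pnpla2 encodes adipose triglyceride lipase, which takes the first fatty acid off stored triglyceride (mm9 chromosome 7, 148641087 to 148646642). It was at 74.96, 91.2 and 92.2 RPKM in left and 203, 181 and 185 in right legs of C57BL/6, a 2.20-fold higher mean. The change was 1.14 ± 0.10 (adjusted p = 4.4e-05) and 0.42 after rescaling (adjusted p = 0.0107). In BALB/c the values were 96.5, 210.1 and 115 and 236, 251 and 281 RPKM, all right legs above all left legs. That change of 0.94 ± 0.28 (adjusted p = 0.0216) was not called after rescaling (0.42, adjusted p = 0.215) unless left library 2 was left out (0.69, adjusted p = 0.0259). As deposited, its adjusted p was 0.0522 to 0.0826 when any BALB/c library other than left library 2 was left out.

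Plin5 fell in BALB/c, and Lipe was called in neither strain. Plin5 encodes perilipin 5, which coats lipid droplets of oxidative tissue and holds them near mitochondria. In BALB/c it was at 3.95, 27.4 and 5.44 RPKM in left and 0.864, 3.44 and 0.646 in right legs, with left library 2 far above the rest. That library also had the highest adipocyte marker sum, 329 RPKM. The sums were 28.8 and 167 RPKM in left libraries 1 and 3 and 141 to 263 in the right legs, where Plin5 was lowest. The part of adipocytes in the Plin5 values was not tested. Plin5 fell by 2.30 ± 0.72 (adjusted p = 0.0279), and by 1.49 without left library 2, where the call was lost (adjusted p = 0.0553; after rescaling -1.94, 0.0355). Its adjusted p was also 0.103 without right library 1 and 0.112 without right library 3. In C57BL/6 Plin5 ranged from 1.01 to 2.42 RPKM in left and from 0.842 to 3.03 in right legs, overlapping. Lipe, hormone-sensitive lipase, was at 3.31, 4.06 and 3.96 RPKM in left and 3.53, 6.31 and 5.05 in right legs of C57BL/6 and at 5.71, 24.1 and 11.02 and 9.23, 8.76 and 11.3 in BALB/c, overlapping in both. It shares 6208 bases of its span with the opposite-strand gene 4732471J01Rik, and the counting did not use strand.

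In the carnitine shuttle, Cpt1b fell in both strains and Slc25a20 rose in C57BL/6. Cpt1b, the muscle carnitine palmitoyltransferase that commits long-chain fatty acids to mitochondria, was called lower under both scalings. It was at 69.5, 79.7 and 78.2 RPKM in left and 41.8, 54.5 and 50.8 in right legs of C57BL/6 (change -0.63 ± 0.11, limma adjusted p = 0.00153). The BALB/c values were 105, 173 and 111 and 55.2, 58.8 and 40.1 RPKM (change -1.31 ± 0.23, adjusted p = 0.00207), and the change was -1.09 (adjusted p = 0.0049) without left library 2. In both strains every right leg lay below every left leg, and the call held when any single library was left out. The whole listed span of Cpt1b (mm9 chromosome 15, 89246836 to 89256293) lies within that of the same-strand gene Gm44502, so reads of these genes cannot be told apart.

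Slc25a20, the carnitine-acylcarnitine carrier of the inner membrane, was at 14.4, 18.9 and 20.02 RPKM in left and 38.3, 44.4 and 45.9 in right legs of C57BL/6. It rose by 1.25 ± 0.13 (adjusted p = 1.1e-04) and by 0.55 after rescaling (adjusted p = 0.0103), and its right legs all lay above its left legs. Its BALB/c legs overlapped, at 20.1, 35.9 and 21.1 RPKM in left and 28.2, 35.4 and 34.4 in right legs (change 0.39 ± 0.23, adjusted p = 0.195); without left library 2 the change was 0.65 (adjusted p = 0.0134) as deposited and 0.07 (adjusted p = 0.771) after rescaling. The promoter of Slc25a20 is the one printed above with the repeat on the gene's own strand. Any part of the repeat in these changes was not tested.

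Acsl1, the main long-chain acyl-CoA synthetase of muscle, rose in C57BL/6 as deposited, from 41.7, 41.5 and 44.8 to 66.8, 74.1 and 69.5 RPKM (change 0.71 ± 0.07, limma adjusted p = 7.7e-05). This was 0.19 above the change of the median tested gene, and the change after rescaling was -0.004 (adjusted p = 0.969). Cpt2, the inner-membrane partner of Cpt1b, and Crat, carnitine acetyltransferase, changed by 0.39 and 0.27 in C57BL/6 as deposited and by -0.32 and -0.45 after rescaling, called in opposite directions. The as-deposited adjusted p of Crat rose to between 0.054 and 0.103 when left library 1, 2 or 3 or right library 1 or 3 was left out. In BALB/c Acsl1, Cpt2 and Crat overlapped between the legs and were called lower only after rescaling (changes of -0.43, -0.58 and -0.08 as deposited and -0.95, -1.09 and -0.60 rescaled). Without left library 2 the rescaled call of Cpt2 was lost (-0.85, adjusted p = 0.0505), and Acsl1 was at -0.02 as deposited and -0.60 rescaled (adjusted p = 0.93 and 0.0225). Crat was the 1 member in which BALB/c left library 2 was not the highest of its group.

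The acyl-CoA dehydrogenases, which start each turn of beta-oxidation on chains of different length, moved apart in C57BL/6. Acadl, for long chains, rose most of them, from 34.02, 42.1 and 46.8 RPKM in left to 112, 132 and 116 in right legs (mm9 chromosome 1, 66877413 to 66909883). Its change was 1.55 ± 0.13 (adjusted p = 3.1e-05) and 0.83 after rescaling (adjusted p = 8.8e-04), a 2.93-fold higher mean. Acads, for short chains, went from 17.6, 17.3 and 21.1 to 37.9, 45.3 and 39.96 RPKM (change 1.12 ± 0.11, adjusted p = 5.8e-05; 0.41 after rescaling, 0.00999). For both genes the lowest right leg was well above the highest left leg. In BALB/c neither was called, at 75.1, 139 and 64.3 and 90.5, 119.8 and 87.1 RPKM for Acadl (change 0.16 ± 0.28, adjusted p = 0.66).

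Acadm, the medium-chain dehydrogenase, was lower in the right legs of both strains (mm9 chromosome 3, 153585317 to 153607607). In C57BL/6 it was at 58.4, 61.5 and 68.3 RPKM in left and 43.9, 54.2 and 49.6 in right legs, a change of -0.35 ± 0.10 (limma adjusted p = 0.0148), with an adjusted p of 0.0512 without left library 3. In BALB/c it was at 71.4, 126 and 75.5 and 27.9, 35.04 and 25.9 RPKM, and the fall was 1.57 ± 0.23 (adjusted p = 9.5e-04) and 1.31 (adjusted p = 0.00154) without left library 2. The legs did not overlap in either strain. Acadvl, for very long chains, rose in C57BL/6 as deposited from 65.8, 68.3 and 76.2 to 105, 119 and 112 RPKM (change 0.68 ± 0.08, adjusted p = 2.4e-04) and had a change of -0.04 after rescaling. In BALB/c Acadvl overlapped between the legs and was called lower only after rescaling (-0.93, adjusted p = 0.0304; -0.41 as deposited). That call was lost without left library 2 (-0.70, adjusted p = 0.0863), where the as-deposited change was -0.12.

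Etfa and Etfb encode the subunits of the electron transfer flavoprotein, and Etfdh encodes the enzyme that hands its electrons to ubiquinone. In C57BL/6 Etfa went from 41.1, 44.3 and 48.2 to 77.2, 93.8 and 82.5 RPKM and Etfb from 100.2, 121 and 145 to 184, 194 and 171, both called higher as deposited (changes 0.92 and 0.60) and not after rescaling (0.20 and -0.12). Etfdh parted from them in BALB/c. It was at 31.1, 60.3 and 31.1 RPKM in left and 24.1, 23.9 and 20.7 in right legs there, a change of -0.75 ± 0.25 (adjusted p = 0.0382), while Etfa and Etfb overlapped between the legs with changes of 0.35 and 0.22. Without left library 2 Etfa was called higher as deposited (0.53, adjusted p = 0.0193) and was at -0.05 after rescaling. In C57BL/6 Etfdh had a change of 0.24 as deposited and -0.47 after rescaling. Without left library 2 the Etfdh change was -0.44 (adjusted p = 0.0375), and without right library 1, 2 or 3 its adjusted p was 0.0854, 0.0786 and 0.126.

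In the later steps of beta-oxidation, Hadh and Acaa2 fell in BALB/c and were not called in C57BL/6 as deposited. Hadh encodes the short- and medium-chain 3-hydroxyacyl-CoA dehydrogenase (mm9 chromosome 3, 130936338 to 130975019). Hadh in BALB/c was at 79.7, 129 and 86.1 RPKM in left and 32.9, 38.4 and 32.3 in right legs, a 0.351-fold mean and a fall of 1.47 ± 0.20 (adjusted p = 5.7e-04). Without left library 2 it fell by 1.25 (adjusted p = 0.00111), and its left legs stayed above its right legs in every library. In C57BL/6 the legs overlapped, at 46.8, 52.5 and 53.5 RPKM in left and 47.6, 53.5 and 47.6 in right legs (change -0.04 ± 0.08, adjusted p = 0.693; -0.75 after rescaling, 1.6e-04).

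Acaa2, the mitochondrial 3-ketoacyl-CoA thiolase that makes the final cut, had the largest fall among the listed enzymes of beta-oxidation in BALB/c. It was at 64.2, 135 and 65.2 RPKM in left and 18.2, 34.6 and 11.95 in right legs; right library 2 was the highest of the right legs and still below the lowest left leg. It fell by 2.05 ± 0.41 (adjusted p = 0.00399), and by 1.70 (adjusted p = 0.014) without left library 2. In C57BL/6 Acaa2 was at 25.04, 32.8 and 36.5 and 19.1, 36.1 and 30.5 RPKM, overlapping, with a change of -0.17 as deposited and -0.88 after rescaling (limma adjusted p = 0.551 and 0.0142). Echs1, the short-chain enoyl-CoA hydratase, was not called in either strain as deposited (0.22 in C57BL/6 and -0.37 in BALB/c) and was called lower in both after rescaling (-0.49 and -0.89).

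Hadha and Hadhb encode the subunits of the mitochondrial trifunctional protein, which carries out the last 3 reactions on long chains. They lie head to head on mouse chromosome 5, and RefSeq places 272 bases between their start sites (GRCm38.p6), so their promoter windows share 228 bases. The 250 bases before the Hadhb start site fall within that stretch and are shown because both subunits start from it; capitals mark CG pairs, of which it holds 17, against a median of 6 over the same bases of all windows.
Hadhb promoter (GRCm38.p6 chr5:30155003-30155252, plus strand): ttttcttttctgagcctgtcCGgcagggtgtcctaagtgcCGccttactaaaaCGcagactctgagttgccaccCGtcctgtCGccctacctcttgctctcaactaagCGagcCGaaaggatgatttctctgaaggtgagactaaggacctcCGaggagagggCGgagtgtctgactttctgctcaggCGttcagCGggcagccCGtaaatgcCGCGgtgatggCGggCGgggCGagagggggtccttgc
The changes of the subunits were of similar size in each strain. In C57BL/6 Hadha went from 83.2, 89.8 and 94.1 to 126, 146 and 139 RPKM and Hadhb from 21.3, 24.2 and 24.1 to 33.1, 43.6 and 39.3, changes of 0.62 ± 0.08 and 0.72 ± 0.11 that were called as deposited (limma adjusted p = 4.0e-04 and 7.6e-04) and not after rescaling (-0.10 and 0.01). In BALB/c Hadha was at 139.6, 258 and 138 and 119, 149 and 108 RPKM and Hadhb at 30.02, 48.2 and 29.7 and 20.6, 29.02 and 20.7, changes of -0.46 ± 0.26 and -0.59 ± 0.23 (adjusted p = 0.184 and 0.0596) that were called lower only after rescaling (-0.98 and -1.10). The rescaled Hadha value just missed the threshold without left library 2 (-0.74, adjusted p = 0.05 when rounded). Per length, Hadha was listed at a higher level than Hadhb in every library.

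Of the enzymes for unsaturated fatty acids, Eci2 rose in both strains as deposited. Eci1 and Eci2 encode enoyl-CoA isomerases that shift double bonds, and Decr1 a dienoyl-CoA reductase. Eci2 was at 19.4, 21.6 and 21.3 RPKM in left and 42.9, 38.4 and 37.8 in right legs of C57BL/6 (change 0.92 ± 0.08, adjusted p = 4.0e-05) and at 24.2, 32.01 and 22.9 and 40.01, 44.9 and 45.3 RPKM in BALB/c (change 0.72 ± 0.16, adjusted p = 0.00572). After rescaling the changes were 0.21 and 0.20 and neither was called. The C57BL/6 table lists Eci2 as NM_001110331 and the BALB/c table as NR_073427, a transcript with the RefSeq prefix for non-coding RNA, so its levels are not set across the strains. Eci1 went the other way in BALB/c, at 57.8, 105 and 60.5 RPKM in left and 40.4, 52.3 and 40.1 in right legs (change -0.70 ± 0.24, adjusted p = 0.0411). The Eci1 call was lost without left library 2 (change -0.43, adjusted p = 0.0738), and leaving out left library 3 or right library 1 or 3 gave an adjusted p of 0.0533, 0.123 and 0.132. In C57BL/6 the Eci1 change was 0.06 as deposited and -0.66 after rescaling, where it was called. Decr1 had changes of 0.26 in C57BL/6 and -0.54 in BALB/c as deposited and -0.45 and -1.05 after rescaling, and its rescaled BALB/c call was lost without left library 2 (-0.94, adjusted p = 0.0541).

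Of the thioesterases and the genes of malonyl-CoA, the inhibitor of Cpt1b, Acot2 alone was called as deposited, higher in C57BL/6. Acot2, a mitochondrial acyl-CoA thioesterase, was at 2.02, 2.02 and 3.03 RPKM in left and 5.15, 4.40 and 5.33 in right legs of C57BL/6 (change 0.95 ± 0.15, adjusted p = 8.9e-04; 0.32 after rescaling, 0.124). In BALB/c its change was 0.17 (adjusted p = 0.804), and without left library 2 it was called higher as deposited (0.80, adjusted p = 0.0406) and not after rescaling (0.27). Its close copy Acot1 shares sequence with it, so the split of reads between them is uncertain. Acacb makes malonyl-CoA at the mitochondrial surface and Mlycd removes it. In both strains Acacb was not called as deposited (changes 0.11 in C57BL/6 and -0.06 in BALB/c), and Mlycd was not either (-0.06 and -0.52). After rescaling Acacb was called lower in C57BL/6 (-0.59) and not in BALB/c (-0.58, adjusted p = 0.0576), and Mlycd was called lower in both (-0.76 and -1.04). Acot13, another thioesterase, went from 0.07 to -0.65 in C57BL/6 and from -0.36 to -0.89 in BALB/c with rescaling, and was called lower only then. Its rescaled BALB/c call was lost without left library 2 (-0.82, adjusted p = 0.0806).

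Ucp2 was the 1 member called higher in both strains under both scalings. It encodes an uncoupling protein of the mitochondrial inner membrane that is also abundant in immune cells (mm9 chromosome 7, 107641867 to 107648138). It went from 3.06, 5.04 and 3.66 to 7.75, 12.9 and 9.48 RPKM in C57BL/6, a 2.56-fold mean and a change of 1.25 ± 0.22 (limma adjusted p = 0.00131; 0.58 after rescaling, 0.0454). In BALB/c it went from 12.7, 22.8 and 14.8 to 60.5, 56.7 and 40.5 RPKM, 3.13-fold (change 1.64 ± 0.24, adjusted p = 8.7e-04; 1.13 after rescaling, 0.00644). All right legs lay above all left legs, and the macrophage marker sums given above were also higher in every right leg of each strain; their part in the Ucp2 change was not tested. Ucp3, its neighbour on chromosome 7 and the form of skeletal muscle, overlapped between the legs in both strains and was not called, with changes of 0.39 ± 0.32 and -0.16 ± 0.31.

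Pdk4 encodes the pyruvate dehydrogenase kinase that limits glucose oxidation and rises when muscle burns fat. In C57BL/6 it was at 18.7, 61.9 and 32.7 RPKM in left and 72.9, 104 and 96.6 in right legs, without overlap. It rose by 1.41 ± 0.39 (adjusted p = 0.0127) as deposited, and was not called after rescaling (0.69, adjusted p = 0.162) or without right library 2 (1.31, adjusted p = 0.0519). In BALB/c left library 2 reached 146 RPKM against 30.2 and 36.0 in the other left legs, and the right legs lay between at 78.3, 37.4 and 60.9 RPKM. The BALB/c change was 0.05 ± 0.56 (adjusted p = 0.945) with that library and 0.76 (adjusted p = 0.0804) without it.

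**Figure D4:**
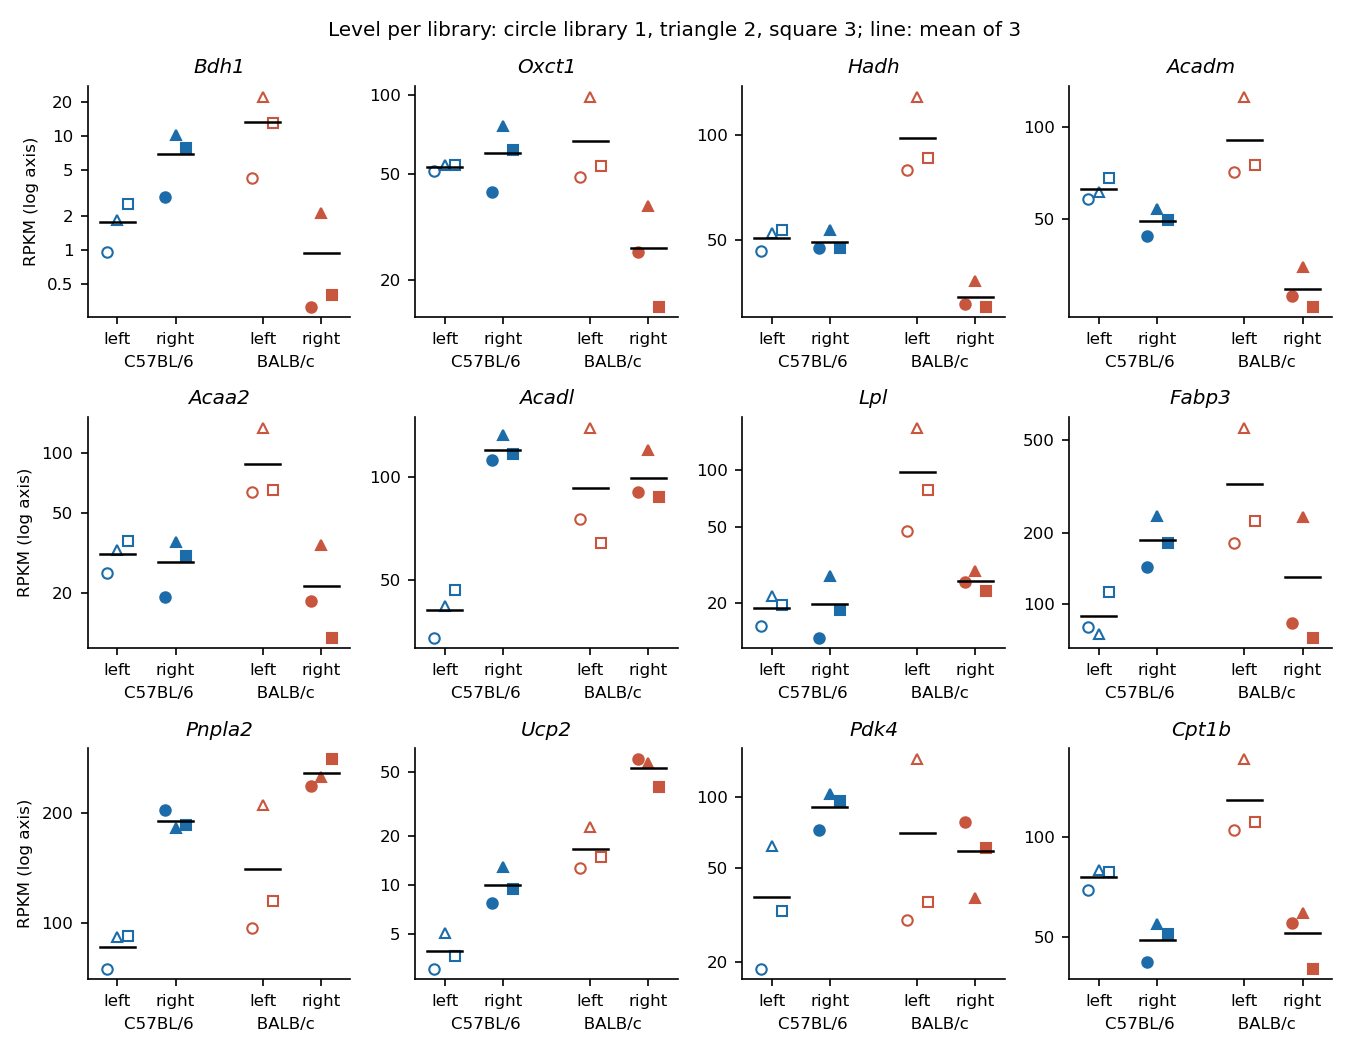
RPKM of 12 of the genes in every library on log axes, C57BL/6 in blue and BALB/c in red, open symbols for left and filled for right legs, with the shape giving the library number and lines at group means. Bdh1 is higher after the nerve cut in C57BL/6 and lower after it in BALB/c, the legs are farther apart in BALB/c than in C57BL/6 for Hadh, Acadm and Acaa2, and Ucp2 and Pnpla2 are higher in the right legs of both.

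Bdh1 went in opposite directions in the strains. It encodes the mitochondrial D-beta-hydroxybutyrate dehydrogenase, the first enzyme of ketone body use. In C57BL/6 Bdh1 was at 0.967, 1.82 and 2.55 RPKM in the left legs and 2.90, 10.2 and 7.79 in the right legs, and in BALB/c at 4.29, 22.2 and 12.97 in the left legs and 0.320, 2.13 and 0.403 in the right legs. The legs did not overlap in either strain, but the right legs were the higher ones in C57BL/6 and the lower ones in BALB/c. The change was 1.62 ± 0.44 in C57BL/6 (limma adjusted p = 0.0124) and -3.19 ± 0.62 in BALB/c (adjusted p = 0.0034), a mean of 3.92 and 0.0722 times that of the left legs. After rescaling the changes were 1.01 (adjusted p = 0.0832) and -3.55 (adjusted p = 0.00282). The C57BL/6 rise was lost without left library 1 (1.33, adjusted p = 0.0512) or right library 3 (1.47, adjusted p = 0.054). The BALB/c fall held without left library 2 (-2.69, adjusted p = 0.0132). Within the BALB/c left legs Bdh1 was lowest in library 1, where Myh7 was also lowest (17.3 RPKM), and the part of fibre type was not tested.

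The transcripts behind these Bdh1 values are not the same. The C57BL/6 table lists NM_001122683 (mm9 chromosome 16, 31428839 to 31458987, 3108 bases) and the BALB/c table NM_175177 (mm9 chromosome 16, 31422383 to 31458987, 3089 bases), which end at the same base and begin 6456 bases apart. Each strain's legs were counted over 1 transcript, so the directions do not mix transcripts, but the size of the difference between strains sets 1 transcript against the other. RefSeq gives a promoter window for each of 2 start sites of the gene, and the 250 bases before each are shown, with CG pairs in capitals, because the tables start Bdh1 near different ones.
Bdh1, first start site (GRCm38.p6 chr16:31422047-31422296, plus strand): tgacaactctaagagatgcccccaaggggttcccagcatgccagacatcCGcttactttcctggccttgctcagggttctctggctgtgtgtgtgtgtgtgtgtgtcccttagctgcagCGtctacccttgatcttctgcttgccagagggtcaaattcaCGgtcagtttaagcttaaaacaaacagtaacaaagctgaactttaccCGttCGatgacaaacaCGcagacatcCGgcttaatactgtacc
Bdh1, second start site (GRCm38.p6 chr16:31428503-31428752, plus strand): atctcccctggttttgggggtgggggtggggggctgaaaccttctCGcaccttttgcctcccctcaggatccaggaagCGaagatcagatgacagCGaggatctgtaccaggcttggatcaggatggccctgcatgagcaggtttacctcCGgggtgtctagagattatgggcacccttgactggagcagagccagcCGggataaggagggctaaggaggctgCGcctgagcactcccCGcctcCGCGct
The first holds 7 CG pairs and is 49.6% G or C, and the second holds 9 and is 60.8% G or C, against medians of 6 pairs and 52.4% over all windows. Neither held the AGGTCA repeat or the ERR motif. The start of the BALB/c transcript is nearer the first and that of the C57BL/6 transcript nearer the second; which start site was used was not measured.

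Oxct1 and Acat1, the following ketone body enzymes, fell with Bdh1 in BALB/c. Oxct1 encodes the succinyl-CoA transferase that activates acetoacetate and Acat1 the thiolase that splits it, an enzyme that also serves isoleucine breakdown. In BALB/c Oxct1 was at 48.8, 98.6 and 53.8 RPKM in left and 25.3, 38.1 and 15.8 in right legs (change -1.34 ± 0.36, adjusted p = 0.0144), and Acat1 at 56.99, 80.8 and 54.2 and 44.4, 44.4 and 43.5 (change -0.51 ± 0.17, adjusted p = 0.036). No right leg reached the lowest left leg in either gene. The Oxct1 call held without left library 2 (-1.03, adjusted p = 0.045) and was lost without right library 3 (-1.02, adjusted p = 0.055). The Acat1 call as deposited was lost without any 1 of the 6 BALB/c libraries except left library 3 (adjusted p = 0.0516 to 0.099), and without left library 2 it was -0.91 (adjusted p = 0.00658) after rescaling. In C57BL/6 Oxct1 overlapped, at 51.5, 54.5 and 54.4 and 43.00, 76.5 and 61.7 RPKM (change 0.14 as deposited and -0.58 after rescaling, called only then), and Acat1 was at 34.5, 37.5 and 38.2 and 43.7, 44.3 and 40.5 (change 0.22 ± 0.07 as deposited and -0.49 after rescaling).

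The difference between the strains was tested by subtracting the change in C57BL/6 from that in BALB/c, over all 12 libraries. It was called in 6 of the 37 members as deposited, all with a lower change in BALB/c, beside 4.33% of 14165 genes called lower and 1.76% called higher. After rescaling it was called in 4, beside 3.49% lower and 3.71% higher. With rescaling and without BALB/c left library 2 it was called in 3, beside 314 lower and 325 higher of the 14165 genes. No member was called higher in BALB/c, and 23 of the 37 (62.2%) had an unadjusted p under 0.05 in this limma fit, as had 24.3% of all tested genes. The median difference of the members was -0.80 against -0.14 for all tested genes, or -0.64 against 0 after rescaling, and it was -0.60 as deposited without BALB/c left library 2. In 36 members the change was lower in BALB/c, as in 63.6% of all tested genes, and after rescaling in 34, as in 50.1%. These counts, and the 62.2% above, include BALB/c left library 2. Without it the difference was above 0 in Pnpla2 (0.14), Acacb (0.06) and Ucp2 (0.63) and below 0 in the other members. With rescaling as well, Lipe (0.04) and Eci2 (0.08) joined them. The shares of all tested genes without that library were not computed.

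Bdh1 had the largest difference among the members, -4.81 ± 0.86 (limma adjusted p = 0.0108; -4.56 after rescaling, 0.0113), and it passed in all 12 fits that left out 1 library. Hadh differed by -1.43 ± 0.22 (adjusted p = 0.00587; -1.23 after rescaling, 0.00914) and also passed in all 12. With rescaling and without BALB/c left library 2, Bdh1 and Hadh still passed, at -4.12 and -1.08 (adjusted p = 0.0247 and 0.013), and Acsl1 was the other called member (-0.59, adjusted p = 0.037).

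Acadm, Hadhb, Acadl and Acat1 rested more on single libraries. Acadm differed by -1.22 ± 0.27 (adjusted p = 0.0261; -1.02 after rescaling, 0.0403) and passed in 6 of 12 fits without 1 library, with adjusted p up to 0.0692. Hadhb differed by -1.31 ± 0.27 (adjusted p = 0.0189; -1.11 after rescaling, 0.0339) and passed in 9 of 12, failing without C57BL/6 left library 1 or right library 2 or 3 (adjusted p = 0.0512, 0.0546 and 0.0525). Acadl (-1.38 ± 0.34, adjusted p = 0.0367) and Acat1 (-0.73 ± 0.19, adjusted p = 0.0402) each passed in 4 of 12 and were not called after rescaling (adjusted p = 0.0545 and 0.0725). Pnpla2, Eci2 and Ucp2, which were higher in the right legs of both strains as deposited, had differences of -0.19 ± 0.32, -0.20 ± 0.17 and 0.39 ± 0.35, none of them called.

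Of 93 other genes of fatty acid, ketone body and pyruvate handling, 92 were tested in each strain. In C57BL/6 54 were called higher and 9 lower as deposited (63.6% and 8.56% of all tested genes) and 21 higher and 30 lower after rescaling (28.2% and 26.4%). In BALB/c 21 were higher and 17 lower (42.5% and 7.67% of all), and 7 higher and 34 lower after rescaling (21.8% and 19.0%). In C57BL/6 the largest rises relative to the median gene were in Scd1, a fatty acid desaturase (1.22, 2.09 and 0.660 to 10.9, 25.2 and 12.3 RPKM, change 3.17 ± 0.37), Fabp5, another fatty acid-binding protein (change 2.48 ± 0.20), and Dgat2, which makes triglyceride (change 2.38 ± 0.29). The largest falls were in Plin4, a lipid droplet coat protein (change -2.46 ± 0.42), Prkaa2, a catalytic subunit of AMP-activated kinase (change -1.83 ± 0.08), and Me1, malic enzyme (change -1.20 ± 0.08). All 6 were called under both scalings.

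In BALB/c the largest rises were in Acsl3, a long-chain acyl-CoA synthetase (1.75, 2.25 and 2.76 to 14.8, 15.3 and 18.3 RPKM, change 2.60 ± 0.18), Fabp5 (2.18 ± 0.19) and the transcription factor gene Foxo1 (2.06 ± 0.16). The largest falls were in Plin4 (22.9, 58.5 and 30.6 to 3.02, 6.62 and 3.12 RPKM, change -2.96 ± 0.38), Acss1, the mitochondrial acetyl-CoA synthetase (-2.34 ± 0.29), and Lpin1, a phosphatidate phosphatase (-1.89 ± 0.15). These were also called under both scalings. Plin4 and Fabp5 are the genes named in both strains, with Plin4 lower and Fabp5 higher in the right legs of each.

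Among the regulators, Esrra, which encodes ERRα, fell in both strains under both scalings. It was at 30.4, 31.8 and 31.3 RPKM in left and 20.04, 22.95 and 21.6 in right legs of C57BL/6 (change -0.53 ± 0.07, limma adjusted p = 4.1e-04) and at 38.7, 53.9 and 40.9 and 23.96, 21.8 and 19.3 in BALB/c (change -1.01 ± 0.16, adjusted p = 0.00141). Ppargc1a, which encodes PGC-1α, fell in BALB/c from 2.18, 3.35 and 2.48 to 1.41, 0.807 and 1.27 RPKM (change -0.93 ± 0.21, adjusted p = 0.00723). In C57BL/6 its change was -0.30 ± 0.13 before rescaling, with an adjusted p of 0.067, and -0.87 after it (adjusted p = 7.3e-04), with all right legs below the left. Ppara was low throughout, at 0.732, 0.912 and 0.871 and 0.633, 0.981 and 0.702 RPKM in C57BL/6 and 0.891, 3.54 and 1.23 and 0.557, 0.415 and 0.447 in BALB/c. It was called lower in BALB/c (-1.14 ± 0.36, adjusted p = 0.0302), a call lost without right library 1, 2 or 3 (adjusted p = 0.0737, 0.0888 and 0.093). Ppard was not called in either strain as deposited (changes 0.15 and 0.36). Angptl4, a target of PPARs that inhibits lipoprotein lipase, rose in C57BL/6 from 0.501, 1.13 and 0.953 to 1.88, 5.84 and 4.36 RPKM (change 1.65 ± 0.36, adjusted p = 0.00429). Its BALB/c change was 0.93 ± 0.31 before rescaling, with an adjusted p of 0.0361, and 0.46 after it (adjusted p = 0.178), with overlapping legs, and without left library 1 or 3 or right library 1 or 3 its adjusted p was 0.0982 to 0.136.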

How the data were processed

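RNA of 12 libraries, in 4 groups of 3 by strain and leg, was read as RPKM. The authors deposited these RPKM values in 1 table per strain. The command in the file headers is HOMER's analyzeRepeats with mm9 annotation, exons, no use of strand, 1 transcript kept per gene and RPKM output, although the column names say FPKM. Per the submitters' processing notes, HISAT2, HOMER and DESeq2 were used, and the builds GRCm38 and mm10 are named; the roles of these and the aligned build are otherwise not given in the sources used here. Gene positions are in mm9, as the tables give them, and promoter sequences are from RefSeq in GRCm38.p6. Columns were matched to samples through their descriptions.

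Read counts were recovered from RPKM, transcript length and a fitted total per library (18132620 to 19282890 reads); 99.66% to 99.79% of values came within 0.1 of a whole read. Precision is limited by these depths and by 3 libraries per group.

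RPKM were transformed to log2(RPKM + 0.5). Genes averaging 0.1 RPKM or more were tested within each table by a two-sided limma test (version 3.58.1, R 4.3.3; lmFit and trended eBayes), and p-values were adjusted by Benjamini-Hochberg over all tested genes. The difference between the strains was 1 contrast in a fit over all 12 libraries, of genes tested in both tables. The strains were deposited in separate tables, which were rescaled separately here, and levels were not tested across them. Median-of-ratios rescaling was applied to all libraries of a table. The test was also run on simulated data. Those data had no shift of the typical gene between the legs and no library that stood apart, so that run says nothing on either.

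The members, the other gene lists, the cell type markers and the motifs were chosen with earlier results of these data known. All members are named. Of the other pathway genes, the 3 called genes per strain and direction with the largest change relative to the median tested gene and a mean of at least 1 RPKM are named, together with Ppara, Ppard, Ppargc1a, Esrra and Angptl4; marker lists are given by sums and counts. Also tried were a pseudocount of 0.1 or 1, a filter of 1 RPKM or none, rescaling, the replicate number as a block, limma-voom on the recovered reads, and leaving out each library. Rescaling together with the block, and rescaling without BALB/c left library 2, were chosen after seeing the data.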

Additional observations from a re-analysis of the deposited data

Results flagged for a closer look

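For 6 of the 37 genes the change in the right leg differed between the strains by the test of the difference itself (BALB/c minus C57BL/6, limma adjusted p under 0.05). All 6 were lower in BALB/c, beside 4.33% of all 14165 tested genes called lower and 1.76% called higher. The difference was -4.81 for Bdh1, which was higher in 3 of 3 right legs of C57BL/6 and lower in 3 of 3 right legs of BALB/c than any left leg of the same strain. It was -1.43 for Hadh, -1.31 for Hadhb, -1.22 for Acadm, -1.38 for Acadl and -0.73 for Acat1. Acadl and Acat1 were not called after rescaling. Of the 6, only Bdh1 and Hadh stayed called with rescaling and without BALB/c left library 2. The Bdh1 value sets 1 listed transcript against another, and the others use the same transcript in both tables.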

How the results depend on the processing

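After median-of-ratios rescaling 5 members were called higher and 17 lower in C57BL/6 (21 and 3 as deposited; all tested genes 4106 and 3840, against 9258 and 1246), and 1 higher and 24 lower in BALB/c (3 and 12 as deposited; all tested genes 3225 and 2818, against 6302 and 1136). In the difference between the strains, 525 of all tested genes were called higher, against 249. Rescaling multiplies all genes of a library by 1 factor, and some changes turned their sign with it. In C57BL/6 these were Cd36 (-0.42), Lpl (-0.68), Lipe (-0.32), Acsl1 (-0.004), Cpt2 (-0.32), Crat (-0.45), Acadvl (-0.04), Etfb (-0.12), Etfdh (-0.47), Echs1 (-0.49), Hadha (-0.10), Eci1 (-0.66), Decr1 (-0.45), Acot13 (-0.65), Acacb (-0.59), Ucp3 (-0.32), Oxct1 (-0.58), Acat1 (-0.49) and Ppard (-0.54). In BALB/c they were Slc25a20 (-0.13), Acadl (-0.36), Acads (-0.20), Etfa (-0.17), Etfb (-0.31), Acot2 (-0.31), Pdk4 (-0.47) and Ppard (-0.14). With rescaling and without BALB/c left library 2, a choice made after seeing the data, Acadl was at -0.09, Acads at -0.08, Etfa at -0.05, Etfb at -0.19, Ppard at -0.09 and Scd1 at 0.23 (-0.20 with all libraries as deposited). In that setting 2615 of all tested genes were called higher and 2423 lower in BALB/c, and the strain difference was called in 3 members and lower in 314 of all tested genes, against 6 and 613.

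Pseudocounts of 0.1 and 1, both other filters and limma-voom on the recovered reads left every count within 1.5 times of its value; limma-voom called 9366 genes higher and 1261 lower in C57BL/6 and 6371 and 1210 in BALB/c. With a pseudocount of 1 the C57BL/6 change of Plin5 was 0.01 instead of -0.003. With the replicate number as a block, the strain difference was called lower in 17 members instead of 6 and in 520 of all tested genes instead of 613, while no other count of calls moved by over 1.5 times. With the block and rescaling together the counts were 7 higher and 19 lower in C57BL/6 (all tested genes 3963 and 3765), 1 and 24 in BALB/c (2911 and 2604), and 14 lower for the strain difference (396 of all tested genes higher), and the changes of single genes were those given for rescaling. Whether equal numbers pair the libraries was not settled. Correlations of same-numbered left and right deviations were 0.18, 0.10 and 0.01 in C57BL/6 and 0.01, 0.07 and 0.24 in BALB/c. Those of unlike numbers ran from -0.17 to 0.10 in C57BL/6 and from -0.19 to 0.11 in BALB/c. Not every library was closest to its own number. In BALB/c the column names of both legs skip the same number. The main tests did not use the number as a block.

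Leaving out 1 library at a time, members called lower ranged from 1 (without left library 3) to 3 in C57BL/6 and from 7 (without right library 3) to 14 (without right library 2) in BALB/c. Members called higher in BALB/c ranged from 2 to 6 (without left library 2). Of all tested genes, 1165 were called lower without C57BL/6 left library 3, against 1246. In BALB/c 859 were lower without right library 3 and 1060 without right library 2, against 1136. Without BALB/c left library 2, 6017 were higher, against 6302. Calls of the strain difference ranged from 2 members (without C57BL/6 left library 1, right library 2 or right library 3) to 16 (without BALB/c left library 1), and over all tested genes from 80 (without C57BL/6 right library 3) to 505 higher (without BALB/c right library 2) and from 219 (without C57BL/6 right library 3) to 1025 lower (without BALB/c left library 1). The cause of these differences was not tested. Fits that leave 2 libraries in a group take their spread partly from the other groups. Changes that crossed 0 were not called as deposited. In C57BL/6 they ranged from -0.26 to 0.27 for Lpl, -0.32 to 0.38 for Plin5, -0.36 to 0.09 for Acaa2, -0.01 to 0.14 for Eci1, -0.02 to 0.16 for Acot13, -0.16 to 0.09 for Mlycd, -0.05 to 0.36 for Oxct1 and -0.27 to 0.07 for Acss1. In BALB/c they ranged from -0.72 to 0.27 for Lipe, -0.20 to 0.06 for Crat, -0.06 to 0.49 for Acadl, -0.25 to 0.80 for Acot2, -0.26 to 0.17 for Acacb, -0.36 to 0.76 for Pdk4, -0.36 to 0.20 for Ucp3, -0.80 to 0.48 for Dgat2 and -1.12 to 0.80 for Scd1. The least covered member value rested on 19 reads.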
